A study of Mus musculus with 12 samples.

Results

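The D-type cyclin genes Ccnd1, Ccnd2 and Ccnd3 and the genes of their kinase partners, Cdk4 and Cdk6, were followed as 5 of 37614 mouse genes counted in 12 RNA sequencing libraries. They were taken by symbol, and all 5 were among the 15711 genes with enough counts to test. The libraries formed 4 groups of 3. MLL-ENL preGM cells were progenitors sorted as Lin-Sca1-ckit+ and lacking CD16/32, CD41, CD105 and CD150, from the strain labelled Col1a1-MLL/ENL, and WT preGM cells were the same gate from C57bl/6 WT mice. MLL-ENL HSC were Lin-Sca1+ckit+CD48-CD150+ haematopoietic stem cells from the Col1a1-MLL/ENL strain, and WT HSC were the same gate from C57bl/6 WT mice. MLL-ENL is a leukaemia fusion gene whose induction is the study's question. Every library, WT included, came from cells kept 48 h in OptiMEM with 10% FCS, SCF (10 to 50 ng/ml), IL3 (5 ng/ml), G-CSF (5 ng/ml) and doxycycline (1 µg/ml). Since no Col1a1-MLL/ENL library lacked doxycycline, induction of the fusion and other strain differences cannot be told apart. What drives the transgene, and ages, are not given in the sources used here. The labels do not tie replicates to animals or cultures. The edgeR p-values set the difference between groups against a spread per gene that was estimated over the libraries of all 4 groups. Tests between the HSC groups thus also carry the spread among preGM libraries. That spread may be technical.

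Cyclins D1, D2 and D3 are short-lived proteins that bind and activate CDK4 or CDK6 in G1 when cells receive mitogenic signals. The active kinases phosphorylate RB1 and its relatives, which releases E2F factors to switch on genes for DNA replication. INK4 proteins block CDK4 and CDK6 directly, and CIP/KIP proteins bind cyclin-CDK complexes. In blood formation cyclin D2 and cyclin D3 are known for their part in precursor expansion, and CDK6 for its part in the exit of stem cells from quiescence.

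The RefSeq promoter table (GRCm38.p6) held Ccnd3 at 2 start sites, Cdk4 and Cdk6. The Ccnd3 pair is shown because the 4 groups differed in which of the exons behind these starts carried counts. The kinase pair is shown because the Cdk4 window has repeated E-boxes, the letters that MYC and its partner MAX are known to bind. Each sequence is the 250 bases before the start on the plus strand, 5′ to 3′, and capitals mark CACGTG.
Ccnd3 upstream start, chr17:47504801-47505050: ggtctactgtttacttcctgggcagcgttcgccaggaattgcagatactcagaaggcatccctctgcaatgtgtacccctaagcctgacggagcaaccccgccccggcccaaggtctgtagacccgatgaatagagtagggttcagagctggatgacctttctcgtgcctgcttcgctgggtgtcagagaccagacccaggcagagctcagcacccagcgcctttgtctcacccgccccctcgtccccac
Ccnd3 downstream start, chr17:47593217-47593466: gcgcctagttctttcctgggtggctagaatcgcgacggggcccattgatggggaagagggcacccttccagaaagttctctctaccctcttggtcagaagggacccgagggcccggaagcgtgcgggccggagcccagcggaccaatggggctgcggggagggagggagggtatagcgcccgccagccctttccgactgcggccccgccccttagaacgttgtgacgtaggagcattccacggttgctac
Cdk4, chr10:127063285-127063534: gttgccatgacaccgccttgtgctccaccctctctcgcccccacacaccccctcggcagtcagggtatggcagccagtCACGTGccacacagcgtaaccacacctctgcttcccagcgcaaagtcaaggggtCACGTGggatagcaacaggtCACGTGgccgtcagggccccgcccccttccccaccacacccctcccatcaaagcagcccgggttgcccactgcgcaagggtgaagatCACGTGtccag
Cdk6, chr5:3343643-3343892: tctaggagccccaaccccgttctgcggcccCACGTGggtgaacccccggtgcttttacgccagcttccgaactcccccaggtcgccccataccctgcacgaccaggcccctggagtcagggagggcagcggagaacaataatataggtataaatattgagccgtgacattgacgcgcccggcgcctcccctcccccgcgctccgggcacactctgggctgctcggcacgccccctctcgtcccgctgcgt
A set of 4 motifs was searched on both strands: CACGTG, TTTCGCGC, TTTGGCGC and TTCNNNGAA. The Cdk4 window held CACGTG 4 times, with first bases 172, 118, 98 and 11 bases before the start. The Cdk6 window held it 1 time, 220 bases before the start, and both Ccnd3 windows held 0. Of 32851 windows of this length in the table, 6.02% held CACGTG at least 1 time and 7 windows (0.0213%) held it at least 4 times. The other motifs were in none of the 4 windows printed here, against 0.256% of all windows for TTTCGCGC, 0.417% for TTTGGCGC and 7.02% for TTCNNNGAA, and none overlapped another in the printed windows.

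Summed gene counts per library were 38466380 to 50326122 in MLL-ENL preGM, 34741936 to 44493485 in WT preGM, 18980508 to 23453501 in MLL-ENL HSC and 14529767 to 18158165 in WT HSC. Levels are given as CPM, counts divided by library sizes that were scaled by TMM, a method that takes most genes as unchanged. Between genes they are given per kb of counted exon. Of the genes that contribute the parts of the fusion, Kmt2a had 31.2 to 39.8 CPM in MLL-ENL preGM and 17.6 to 28.3 CPM in WT preGM, and 90.5 to 105.1 CPM in MLL-ENL HSC and 72.5 to 78.9 CPM in WT HSC. It was thus above WT in every MLL-ENL library of each cell type, but did not pass the edgeR test in HSC or in preGM (adjusted p = 0.407 and 0.0887). Mllt1 did not pass it either (adjusted p = 0.258 in HSC and 0.375 in preGM), and was above WT in the MLL-ENL preGM libraries and below WT in the MLL-ENL HSC libraries. The gate genes Ly6a, Slamf1 and Kit were lower in preGM than in HSC of each strain by the edgeR test. For Kit with MLL-ENL this call held in 16 of 22 alternatives. MLL-ENL preGM replicate 1 had 99.4 CPM of Kit, against 29.9 and 29.7 CPM in the other MLL-ENL preGM libraries and 103 to 127 CPM in MLL-ENL HSC. Kit was 2.14-fold lower with that library and 3.79-fold lower without it. Cd48, which the HSC gate should lack, had 4.18 to 6.44 CPM in MLL-ENL HSC and 91.4 to 134 CPM in WT HSC, so the WT HSC libraries went against their gate in it. Fcgr3, which encodes CD16 and which the preGM gate should lack, had 22.8 to 42.9 CPM in MLL-ENL preGM and 137 to 250 CPM in WT preGM, against 0.544 to 1.85 CPM in the HSC libraries. It was called higher in preGM than in HSC of each strain and lower with MLL-ENL in preGM (edgeR log2 fold change -2.53, adjusted p = 0.000339), so the preGM libraries went against their gate in it, WT more than MLL-ENL. All gate gene levels are of RNA after 48 h of culture, not of surface protein at the sort, and the relation of the 2 was not tested. A pair of libraries stood apart. WT preGM replicate 2 had another share of counts in the last exon in 3 of the 5 genes: 51.7% of its Cdk4 transcript counts lay there (95% Wilson interval 50.4 to 53.0%, counting error only), against 26.7 to 34.6% in the other 11 libraries. In Ccnd2 the share was also higher in it (63.3% against 41.2 to 58.8%), in Cdk6 it was lower (93.2% against 98.1 to 99.5%), and in Ccnd1 and Ccnd3 it lay within the range of the other libraries. MLL-ENL preGM replicate 1 had 428 CPM of Myc, against 149 and 165 CPM in the other MLL-ENL preGM libraries. Over all genes, the chi-square per degree of freedom between replicates was 554 and 484 for pairs with MLL-ENL preGM replicate 1, against 17.0 for its other pair. For pairs with WT preGM replicate 2 it was 441 and 528, against 25.6. Results that rest on these libraries are given with and without them. They were picked with the data known, partly by values of the 5 genes. Calls made without them are thus not independent of those values. In bulk samples fewer cells of a type and less RNA per cell cannot be told apart.

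**Figure D1:**
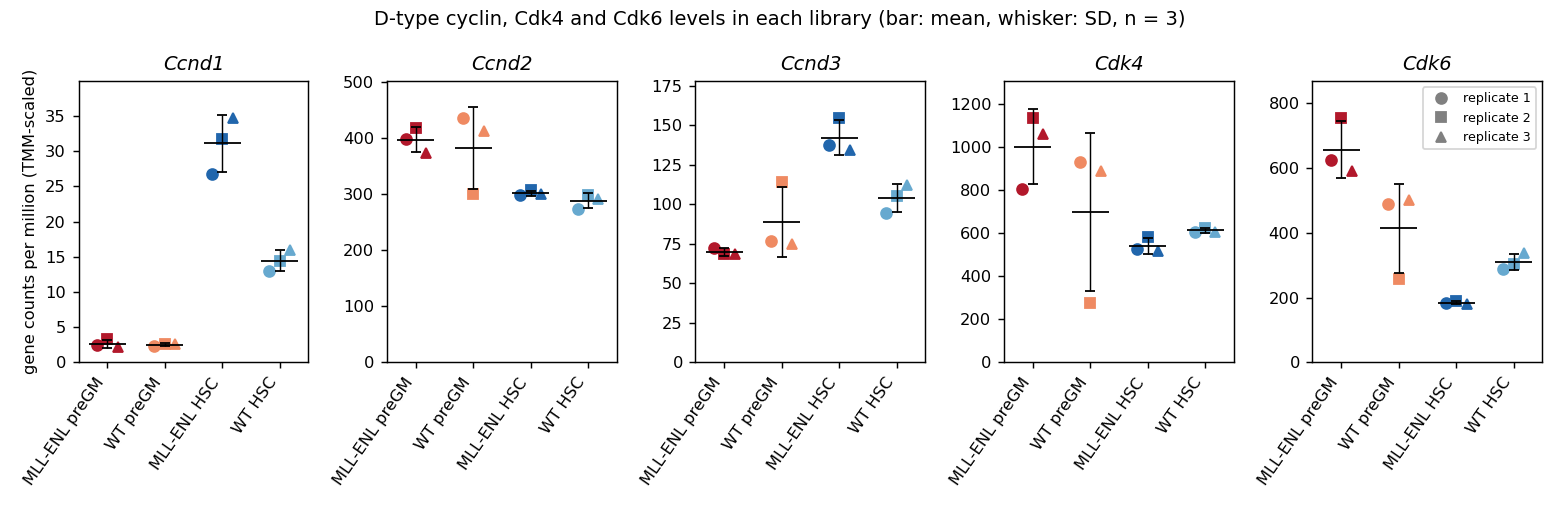
Gene level in TMM-scaled CPM (y axis, linear from 0) of each of the 5 genes in each library, by group (x axis). Points are libraries, bars the mean and whiskers the SD of 3. Ccnd1 was at 2.18 to 3.28 CPM in the 6 preGM libraries and at 13.0 to 34.8 CPM in the 6 HSC libraries, and WT preGM replicate 2 stood apart from its group in Ccnd2, Ccnd3, Cdk4 and Cdk6.

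Ccnd1, which encodes the cyclin D1 that many tissues use, was low in preGM and higher in HSC of both strains. Its level was 2.46, 3.28 and 2.18 CPM in MLL-ENL preGM and 2.33, 2.61 and 2.65 CPM in WT preGM. It was 26.8, 31.8 and 34.8 CPM in MLL-ENL HSC and 13.0, 14.4 and 16.0 CPM in WT HSC. Every HSC library was above every preGM library, the MLL-ENL HSC libraries were all above the WT HSC libraries, and the 2 preGM groups overlapped. Ccnd1 fell in preGM against HSC by 3.56 ± 0.26 with MLL-ENL (log2 fold change ± SE, edgeR adjusted p = 7.23e-08), which is 11.8-fold lower. In WT it fell by 2.51 ± 0.25 (adjusted p = 1.38e-06, edgeR), or 5.71-fold. These calls held under every alternative tried for them.

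Ccnd1 rose with MLL-ENL in HSC, by 1.11 ± 0.23 or 2.15-fold (edgeR adjusted p = 0.0139). In preGM its difference was 0.06 ± 0.25 (adjusted p = 0.903), and the difference between the 2 responses did not pass the test (-1.05 ± 0.34, adjusted p = 0.117). The call in HSC was lost when any of 4 libraries was left out. The log2 fold change was 1.10 without MLL-ENL HSC replicate 2 and 1.02 without MLL-ENL HSC replicate 3 (edgeR adjusted p = 0.0568 and 0.0701). It was 1.04 without WT HSC replicate 1 and 1.11 without WT HSC replicate 2 (adjusted p = 0.0611 and 0.0501). Over all 12 libraries left out in turn the adjusted p ran from 0.00586 to 0.0701.

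The Ccnd1 transcript counted here (ENSMUST00000093962, chr7:144929931-144939869 on the minus strand) has 5 exons, and 818 of the 2841 bases of its last exon also belong to LTO1 on the other strand. Reads of the 2 genes cannot be told apart there, because counting ignored strand. An LTO1 exon that covers this stretch (chr7:144928925-144930748) held 123, 76 and 70 counts in MLL-ENL preGM, 69, 34 and 67 in WT preGM, 465, 402 and 556 in MLL-ENL HSC and 150, 159 and 102 in WT HSC. Another LTO1 exon, outside Ccnd1 (chr7:144919224-144919341), held 99, 45 and 61 counts in MLL-ENL preGM and 50, 49 and 51 in WT preGM. In HSC it held 23, 22 and 22 counts with MLL-ENL and 2, 10 and 7 in WT. The part of LTO1 reads in the counts of the Ccnd1 last exon was not tested. Exons 1 to 4 of Ccnd1 lie outside LTO1. They held 5, 2 and 13 counts in MLL-ENL preGM, 8, 6 and 15 in WT preGM, 102, 163 and 149 in MLL-ENL HSC and 32, 78 and 62 in WT HSC. The preGM libraries were thus near 0 in these exons although they were sequenced more deeply. Counted from exons 1 to 4 alone, a choice made after seeing the data, the log2 fold change of preGM against HSC was -4.83 ± 0.62 with MLL-ENL and -3.24 ± 0.58 in WT (edgeR adjusted p = 2.28e-05 and 0.000431). With MLL-ENL in HSC it was 0.71 ± 0.50 on these exons (adjusted p = 0.484) and 1.20 ± 0.25 on the last exon (adjusted p = 0.0123), so the rise of Ccnd1 in MLL-ENL HSC was called from the last exon alone.

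Ccnd2, the cyclin D2 gene, was the most abundant D-type cyclin per kb of exon in all 12 libraries, counted over the whole gene. This order depends on length. Ccnd3 was divided by 8585 exon bases, while its reference transcript has 1999 (5701 for Ccnd2 by both). Per kb of reference transcript Ccnd3 was above Ccnd2 in every MLL-ENL HSC library, WT HSC replicate 3 and WT preGM replicate 2. On the last exon it was so in every library but MLL-ENL preGM replicate 1. In MLL-ENL HSC Ccnd3 had 86.6 to 103.8 CPM per kb there, against 29.45 to 34.97 for Ccnd2. That Ccnd3 exon shares 361 bases with Bysl. Ccnd2 had 400, 419 and 374 CPM in MLL-ENL preGM and 437, 300 and 414 CPM in WT preGM. In HSC it had 299, 307 and 301 CPM with MLL-ENL and 275, 300 and 293 CPM in WT. Each preGM group was above the HSC group of its strain without overlap, by a narrow margin in WT because replicate 2 of WT preGM sat at the level of HSC. The log2 difference of preGM against HSC was 0.39 ± 0.23 with MLL-ENL and 0.41 ± 0.23 in WT, and neither passed the edgeR test (adjusted p = 0.190 and 0.183). Without the 2 libraries that stood apart, a choice made with the data known, they were 0.40 and 0.56 and passed (adjusted p = 0.00246 and 0.000157). Leaving out WT preGM replicate 2 alone was enough for both calls (adjusted p = 0.0481 with MLL-ENL and 0.0181 in WT). Scaled by library size alone, which moved the median gene by -0.70 in WT and by -0.56 with MLL-ENL, both preGM differences turned negative (-0.27 and -0.18), and relative to the median gene they were 0.46 and 0.38. Between MLL-ENL and WT the log2 difference of Ccnd2 was 0.06 ± 0.23 in HSC and 0.05 ± 0.23 in preGM, with intervals of 2 SE from -0.40 to 0.53 and from -0.42 to 0.52.

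Ccnd3, the cyclin D3 gene, was lowest in MLL-ENL preGM and highest in MLL-ENL HSC. It had 72.5, 68.5 and 68.3 CPM in MLL-ENL preGM and 76.8, 114 and 75.1 CPM in WT preGM. In MLL-ENL HSC it had 137, 155 and 134 CPM, and in WT HSC 94.7, 104.9 and 112 CPM. MLL-ENL HSC stood above WT HSC and MLL-ENL preGM stood below WT preGM without overlap, while WT preGM and WT HSC overlapped through replicate 2 of WT preGM. Ccnd3 fell in preGM against HSC with MLL-ENL by 1.03 ± 0.23, or 2.04-fold (edgeR adjusted p = 0.00213). In WT the difference was -0.23 ± 0.22 (adjusted p = 0.450). With MLL-ENL against WT it was 0.45 ± 0.22 in HSC (adjusted p = 0.297) and -0.35 ± 0.22 in preGM (adjusted p = 0.358). With the 2 libraries that stood apart left out, Ccnd3 was called in HSC with MLL-ENL (0.45, adjusted p = 0.00609), in WT preGM against WT HSC (-0.44, adjusted p = 0.00502) and in the difference of responses (-0.60, adjusted p = 0.0246).

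The exons of Ccnd3 differed among themselves. In its reference transcript (ENSMUST00000037333, chr17:47505128-47599691, 7 exons) the upstream first exon (chr17:47505128-47505266) follows the first of the printed starts. It held 2, 1 and 0 counts in MLL-ENL preGM and 1, 0 and 2 in WT preGM, against 14, 24 and 42 in MLL-ENL HSC and 11, 12 and 23 in WT HSC. All 6 HSC libraries were above all 6 preGM libraries in this exon, although preGM libraries were deeper. The third exon (chr17:47593654-47593852) also lies in transcripts that begin at the second printed start. It held 181, 31 and 21 counts in MLL-ENL preGM and 41, 22 and 38 in WT preGM, against 67, 78 and 92 in MLL-ENL HSC and 3, 7 and 6 in WT HSC. In CPM the third exon averaged 1.66 ± 1.52 in MLL-ENL preGM, 1.11 ± 0.10 in WT preGM, 2.83 ± 0.62 in MLL-ENL HSC and 0.285 ± 0.105 in WT HSC (SD, n = 3 each). WT HSC thus had counts in the upstream first exon and few in the third, both preGM groups had the reverse, and MLL-ENL HSC had both. The third exon extended towards the second start (chr17:47593470-47593852) held 225, 33 and 23 counts in MLL-ENL preGM and 47, 25 and 43 in WT preGM. It held 86, 85 and 111 in MLL-ENL HSC and 3, 8 and 6 in WT HSC. The bases found only in that form thus added few counts in most libraries, and which start was used was not tested. These exon values are a description, with no test.

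Over its 6 exons before the last, Ccnd3 had 21.3, 8.93 and 8.69 CPM in MLL-ENL preGM and 10.4, 11.6 and 11.5 CPM in WT preGM. These exons had 21.9, 29.9 and 26.2 CPM in MLL-ENL HSC and 11.1, 11.2 and 8.92 CPM in WT HSC. The MLL-ENL HSC libraries were the highest group, and replicate 1 of MLL-ENL preGM stood above the other 5 preGM libraries. Counted from these exons alone, after seeing the data, the rise with MLL-ENL in HSC was 1.32 ± 0.31, or 2.49-fold (edgeR adjusted p = 0.0270). The fall in preGM against HSC with MLL-ENL was called on them too (adjusted p = 0.0173). Of the 1083 bases of the last exon, 361 are shared with Bysl on the other strand, which had 910 to 2954 counts in its last exon over the 12 libraries. That exon of Ccnd3 held 68.5 to 91.4% of the transcript's counts, and its log2 difference with MLL-ENL in HSC was 0.25 ± 0.24 (adjusted p = 0.620). The first 486 bases of that exon, counted on their own as the exon of a shorter transcript, lie outside Bysl. They had 13.7 ± 1.2 CPM in MLL-ENL preGM, 14.6 ± 2.3 CPM in WT preGM, 28.2 ± 3.6 CPM in MLL-ENL HSC and 19.3 ± 2.3 CPM in WT HSC (SD, n = 3 each). There MLL-ENL HSC, at 25.6 to 32.3 CPM, was above WT HSC, at 16.7 to 21.2 CPM, without overlap, and this stretch was not tested.

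**Figure D2:**
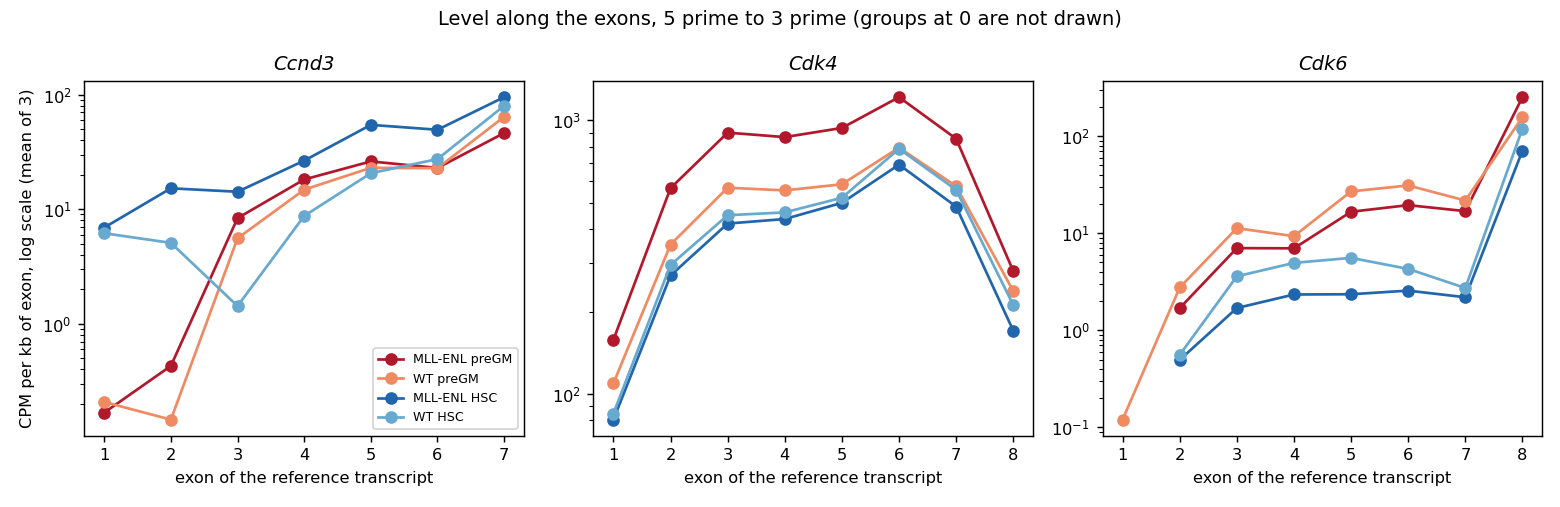
Mean level of 3 libraries in CPM per kb of exon (y axis, log scale) along the exons of Ccnd3, Cdk4 and Cdk6 (x axis, 5′ exon first), 1 line per group, with means of 0 not drawn. Exons 1 and 2 of Ccnd3 dropped out in preGM and exon 3 was lowest in WT HSC, and the last exon of Cdk6 stood far above its other exons in every group.

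Per kb of exon over the whole gene, Ccnd2 made up 88.8 ± 0.4% of the D-type cyclin counts in MLL-ENL preGM, 85.5 ± 5.6% in WT preGM, 68.3 ± 1.2% in MLL-ENL HSC and 76.2 ± 1.1% in WT HSC (SD, n = 3 each). Ccnd3 made up 10.4 ± 0.6% in MLL-ENL preGM, 13.7 ± 5.4% in WT preGM, 21.3 ± 1.2% in MLL-ENL HSC and 18.1 ± 0.8% in WT HSC. Ccnd1 made up 0.873 ± 0.146% in MLL-ENL preGM, 0.855 ± 0.158% in WT preGM, 10.4 ± 1.2% in MLL-ENL HSC and 5.65 ± 0.38% in WT HSC. The share of Ccnd1 did not overlap between MLL-ENL HSC and WT HSC, nor between preGM and HSC of either strain. In 2-sided exact permutation tests of 3 against 3 libraries the smallest p is 0.1, and the share of Ccnd1 reached it in these 3 comparisons. Over the 16 tests of shares and of the kinase ratio, p = 0.1 became 0.160 after Benjamini-Hochberg adjustment, so no exact permutation test could pass 0.05. Counted from the exons before the last, Ccnd2 still made up most of the sum, at 93.1 ± 4.7% in MLL-ENL preGM, 93.3 ± 3.3% in WT preGM, 81.8 ± 1.2% in MLL-ENL HSC and 90.5 ± 0.1% in WT HSC. Ccnd1 made up at most 3.44% of it in any library. On these exons Ccnd3 made up 6.84 ± 4.69% in MLL-ENL preGM, 6.51 ± 3.24% in WT preGM, 15.3 ± 0.5% in MLL-ENL HSC and 7.36 ± 0.86% in WT HSC. Counted from the longest transcript of each gene, Ccnd3 made up 4.77 ± 2.51% in MLL-ENL preGM, 4.70 ± 1.26% in WT preGM, 11.001 ± 1.174% in MLL-ENL HSC and 4.50 ± 0.72% in WT HSC. By that count the Ccnd1 shares were 12.1 ± 1.3% in MLL-ENL HSC and 6.76 ± 0.56% in WT HSC, so Ccnd1 was above Ccnd3 in all 3 WT HSC libraries, the reverse of the order by the whole gene. All these shares depend on the lengths used, and on the last exon Ccnd3 was above Ccnd2 in most libraries, as given above.

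**Figure D3:**
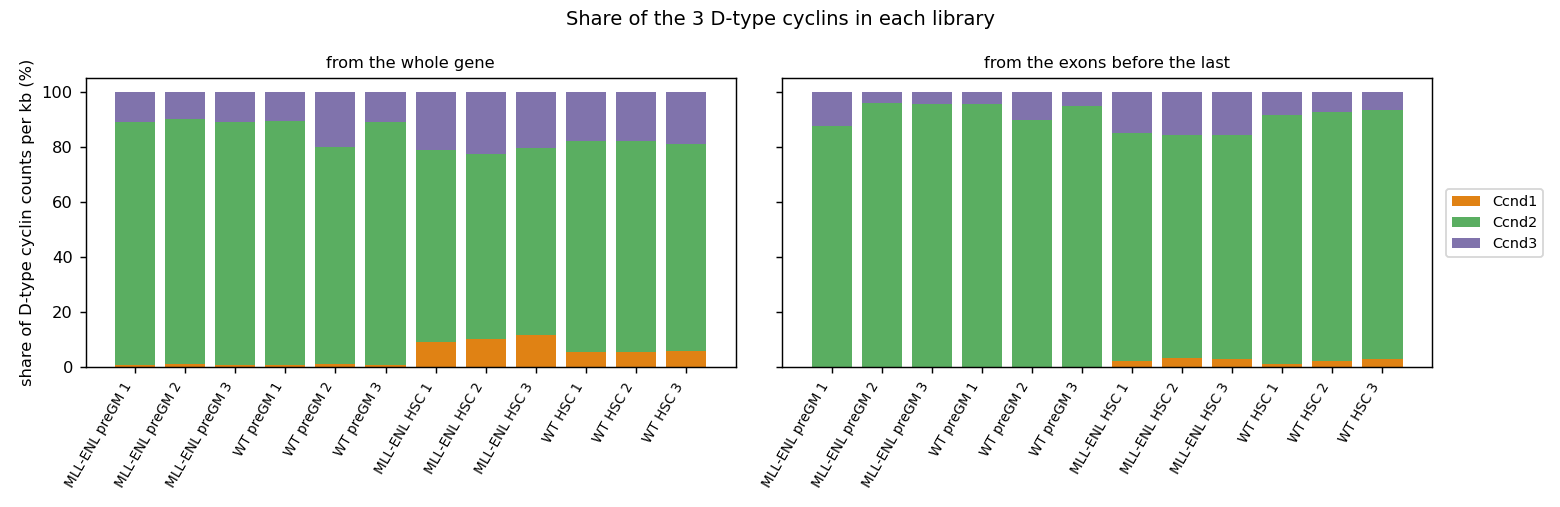
Share in percent (y axis, linear from 0) of Ccnd1, Ccnd2 and Ccnd3 in their summed counts per kb of exon in each library (x axis), from the whole gene (left) and from the exons before the last (right). Ccnd2 was the largest part in all 12 libraries in both panels, and the Ccnd1 part was visible in the HSC libraries.

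Cdk4, which encodes the kinase that pairs with D-type cyclins in most tissues, was the most abundant of the 5 genes per kb in all 4 group means. It had 806, 1135 and 1061 CPM in MLL-ENL preGM and 928, 276 and 890 CPM in WT preGM. It had 525, 584 and 515 CPM in MLL-ENL HSC and 605, 626 and 607 CPM in WT HSC. The 3 MLL-ENL preGM libraries were above all HSC libraries, and so were WT preGM replicates 1 and 3, while WT preGM replicate 2 was the lowest of the 12. None of the Cdk4 differences passed the edgeR test with all libraries in. The difference of preGM against HSC was 0.89 ± 0.36 with MLL-ENL (adjusted p = 0.0599) and 0.19 ± 0.36 in WT (adjusted p = 0.711). Without the 2 libraries that stood apart these were 1.03 and 0.58, and both passed (adjusted p = 3.85e-07 and 0.000102). With WT preGM replicate 2 alone left out they were 0.89 and 0.58 (adjusted p = 0.00180 and 0.0383). With MLL-ENL, Cdk4 differed from WT by -0.18 ± 0.36 in HSC and by 0.52 ± 0.36 in preGM (edgeR adjusted p = 0.834 and 0.390).

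The Cdk4 transcript (ENSMUST00000006911, chr10:127063534-127067920, 8 exons) shares 604 of the 992 bases of its last exon with Tspan31 on the other strand. Its 7 exons before the last, outside Tspan31, had 586, 806 and 760 CPM in MLL-ENL preGM, 644, 132 and 603 CPM in WT preGM, 350, 404 and 349 CPM in MLL-ENL HSC and 394, 410 and 397 CPM in WT HSC. The order of the groups and the place of WT preGM replicate 2 were as for the whole gene. The log2 difference of preGM against HSC on these exons was 0.96 ± 0.41 with MLL-ENL and 0.20 ± 0.41 in WT (edgeR adjusted p = 0.0719 and 0.729).

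**Figure D4:**
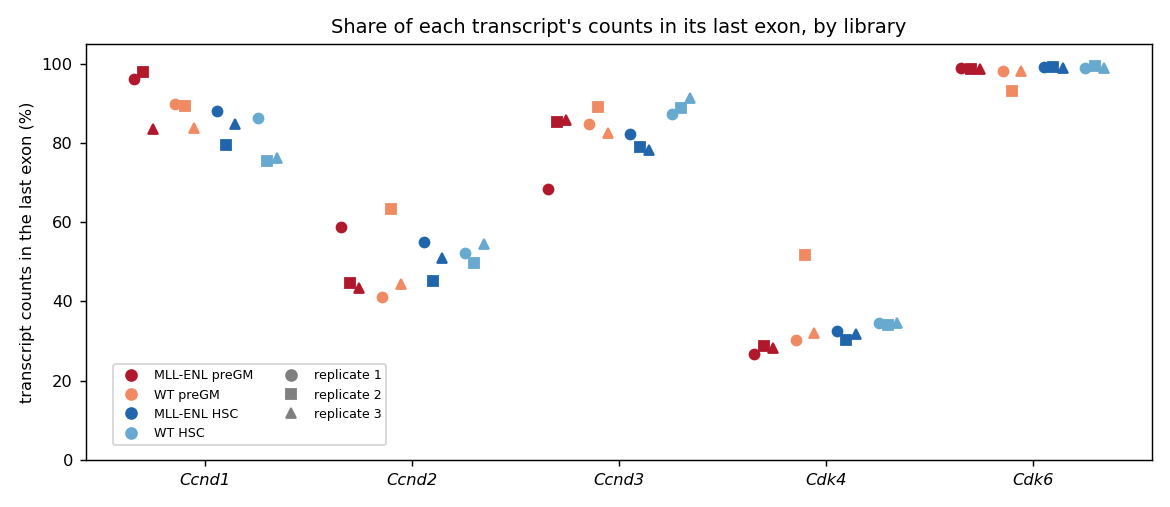
Share of each reference transcript's counts that lay in its last exon (y axis, percent) for each library, by gene (x axis) and group (colour). WT preGM replicate 2 stood above the other libraries in Cdk4 at 51.7% and in Ccnd2 at 63.3% and below them in Cdk6 at 93.2%, and MLL-ENL preGM replicate 1 was the lowest in Ccnd3 at 68.5%.

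Cdk6, the kinase gene that blood-forming cells use beside Cdk4, had 625, 755 and 590 CPM in MLL-ENL preGM and 487, 256 and 500 CPM in WT preGM. It had 184, 188 and 179 CPM in MLL-ENL HSC and 289, 304 and 337 CPM in WT HSC. MLL-ENL preGM was above WT preGM and MLL-ENL HSC was below WT HSC, both without overlap. Cdk6 rose in preGM against HSC with MLL-ENL, by 1.84 ± 0.28 or 3.57-fold (edgeR adjusted p = 0.000125). In WT the difference was 0.42 ± 0.28 (adjusted p = 0.247), and without WT preGM replicate 2 it was 0.68 (adjusted p = 0.0110). With MLL-ENL against WT, Cdk6 differed by -0.75 ± 0.28 in HSC (adjusted p = 0.148) and by 0.66 ± 0.28 in preGM (adjusted p = 0.163). The difference between these responses was 1.42 ± 0.39 (edgeR adjusted p = 0.0614). Without the 2 libraries that stood apart all 3 passed, at -0.76 in HSC, 0.45 in preGM and 1.20 for the difference (adjusted p = 0.000227, 0.0442 and 0.000321).

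Nearly all Cdk6 counts came from 1 end of the gene. In the transcript counted here (ENSMUST00000165117, chr5:3343893-3523218, 8 exons) the last exon (chr5:3520645-3523218) held 93.2 to 99.5% of the counts in a library. Within it, 90.0 to 98.2% of the counts lay in the final 993 bases, beyond the end of a shorter annotated transcript at base 3522225. Exons 1 to 7 held 330, 293 and 306 counts in MLL-ENL preGM, 313, 372 and 321 in WT preGM, 48, 35 and 49 in MLL-ENL HSC and 54, 34 and 62 in WT HSC. In CPM these exons had 6.21, 9.52 and 8.45 in MLL-ENL preGM, 9.34, 17.3 and 9.14 in WT preGM, 1.52, 1.39 and 1.73 in MLL-ENL HSC and 3.02, 1.54 and 3.81 in WT HSC. All preGM libraries were above all HSC libraries, and MLL-ENL and WT overlapped within each cell type.

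Counted from exons 1 to 7, after seeing the data, Cdk6 rose in preGM against HSC in both strains, by 2.37 ± 0.38 with MLL-ENL and by 2.102 ± 0.374 in WT (edgeR adjusted p = 0.000168 and 0.000409). These are 5.18-fold and 4.29-fold. Between MLL-ENL and WT the same exons differed by -0.56 ± 0.35 in preGM (adjusted p = 0.337) and by -0.84 ± 0.38 in HSC (adjusted p = 0.253), and the difference of responses was 0.27 ± 0.51 (adjusted p = 0.856). In preGM the sign was the opposite of that of the last exon, which differed by 0.69 ± 0.28 (adjusted p = 0.158). The share of counts along the gene was not the same in all libraries, and its part in these differences was not tested.

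**Figure D5:**
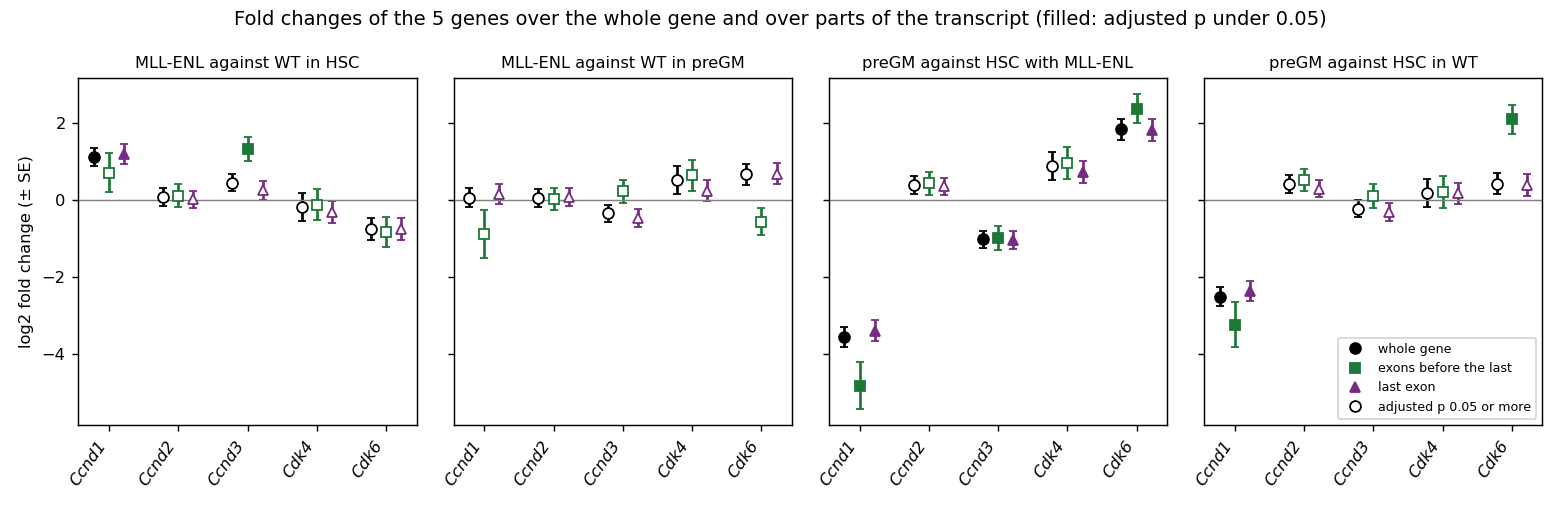
Log2 fold change with its SE (y axis) of each gene (x axis) in 4 comparisons, from the whole gene, from the exons before the last and from the last exon, filled where the edgeR adjusted p was under 0.05. In preGM against HSC, Ccnd1 was filled below 0 for all 3 counts in both strains, and Cdk6 was filled above 0 for all 3 with MLL-ENL but only for the exons before the last in WT.

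Scaled by library size alone, the WT preGM difference was negative for Cdk4 (-0.45) and Cdk6 (-0.24), and relative to the median gene it was 0.28 and 0.49. The ratio of Cdk6 to Cdk4 counts per kb was 0.555 ± 0.091 in MLL-ENL preGM, 0.561 ± 0.186 in WT preGM, 0.284 ± 0.013 in MLL-ENL HSC and 0.423 ± 0.036 in WT HSC (SD, n = 3 each). MLL-ENL HSC libraries, at 0.270 to 0.293, were all below WT HSC libraries, at 0.399 to 0.464. The mean log2 ratio of MLL-ENL HSC minus WT HSC was -0.57, and that of MLL-ENL preGM minus MLL-ENL HSC was 0.95. Both reached p = 0.1 in the exact permutation test, the smallest it allows, and 0.160 after adjustment over the 16 tests. On the exons before the last the ratio was 0.0102 ± 0.0006 in MLL-ENL preGM, 0.0489 ± 0.0612 in WT preGM, 0.00389 ± 0.00069 in MLL-ENL HSC and 0.00641 ± 0.00273 in WT HSC. The WT preGM mean rested on replicate 2, at 0.119, while replicates 1 and 3 were at 0.0133 and 0.0138. The 2 ways of counting thus set Cdk6 at very different levels beside Cdk4, while the group mean was lowest in MLL-ENL HSC by both.

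Read against the whole table, 1 of the 5 genes (Ccnd1) was called by edgeR with MLL-ENL in HSC, where 4.12% of all tested genes were (3.19% higher and 0.929% lower). In preGM 0 of 5 were called, where 6.77% of all genes were (3.70% higher and 3.07% lower), and 1 of 5 (Cdk6) had an unadjusted p under 0.05, where 23.4% of all genes did. DESeq2 also called 0 of 5 there, and 11.6% of the genes it tested. For the difference of responses edgeR called 0 of 5, where 3.13% of all genes were called (1.08% higher and 2.06% lower), and 3 of 5 had an unadjusted p under 0.05, where 16.2% of all genes did. DESeq2 called 2 of 5 (Ccnd1 and Cdk6) and 6.58% of the genes it tested. In preGM against HSC 3 of 5 (Ccnd1, Ccnd3 and Cdk6) were called with MLL-ENL, against 41.5% of all genes (20.4% higher and 21.1% lower). In WT 1 of 5 (Ccnd1) was, against 38.5% (18.4% higher and 20.1% lower). Without overlap between groups were 4 of 5 with MLL-ENL in HSC (34.8% of all genes), 2 of 5 in preGM (27.8%), 5 of 5 in preGM against HSC with MLL-ENL (54.8%) and 2 of 5 in WT (48.4%). Without the 2 libraries that stood apart edgeR called 3 of 5 with MLL-ENL in HSC (21.3% of all genes), 1 of 5 in preGM (7.14%) and 3 of 5 for the difference of responses (12.2%). In preGM against HSC that fit called 5 of 5 with MLL-ENL (51.6% of all genes, 25.1% higher and 26.5% lower) and 5 of 5 in WT (50.9%, 25.6% higher and 25.3% lower). DESeq2 called 2 of 5 with MLL-ENL in HSC (7.99% of the genes it tested), and in preGM against HSC 4 of 5 with MLL-ENL (39.9%) and 2 of 5 in WT (37.6%). The comparisons share groups, so they are not independent of each other.

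Other cell markers moved with the comparisons. The summed level of 8 neutrophil genes was 9478 to 14658 CPM in MLL-ENL preGM and 24253 to 26853 CPM in WT preGM, and 7 of the 8 fell with MLL-ENL there by the edgeR test. In HSC the same sum was 220 to 255 CPM with MLL-ENL and 275 to 396 CPM in WT. The sum of 5 mast cell and basophil genes was 180 to 281 CPM in MLL-ENL preGM, 1423 to 2378 CPM in WT preGM, 3.66 to 11.02 CPM in MLL-ENL HSC and 5.98 to 9.35 CPM in WT HSC. Of 5 megakaryocyte genes it was 30.3 to 40.1 CPM in MLL-ENL preGM, 22.4 to 91.4 CPM in WT preGM, 192 to 238 CPM in MLL-ENL HSC and 549 to 689 CPM in WT HSC. Of 5 erythroid genes it was 15.1 to 19.7 CPM in MLL-ENL preGM, 26.2 to 53.1 CPM in WT preGM, 25.4 to 30.6 CPM in MLL-ENL HSC and 86.1 to 111 CPM in WT HSC, so that MLL-ENL was below WT in both cell types without overlap. Of 4 stromal and endothelial genes it was 34.6 to 112 CPM in MLL-ENL preGM, 30.8 to 33.6 CPM in WT preGM, 27.6 to 29.9 CPM in MLL-ENL HSC and 14.2 to 17.0 CPM in WT HSC, so that MLL-ENL was above WT in both. Only 2 of these 4 had enough counts to test, and of them 1 was higher and 1 lower in preGM than in HSC of each strain. Col3a1 had 0 counts in every preGM library, and Cdh5 had 0 in every WT preGM library. Of 5 lymphoid genes the sum was 3.48 to 6.63 CPM in MLL-ENL preGM, 3.05 to 4.09 CPM in WT preGM, 1.13 to 1.79 CPM in MLL-ENL HSC and 2.63 to 5.41 CPM in WT HSC, and the T cell gene Cd3e had 0 counts in every library. The part of these cells in the levels of the cyclin and kinase genes was not tested.

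Of 52 other genes of the pathway, in 9 lists, 49 were tested. With MLL-ENL in HSC 2 rose and 2 fell by the edgeR test, and the median log2 fold change was -0.26 against 0.02 over all genes. Cdkn2c, which encodes the INK4 inhibitor p18, rose by 1.43 ± 0.33 (adjusted p = 0.0238), with 24.7 ± 4.7 CPM in MLL-ENL HSC and 9.18 ± 2.69 CPM in WT HSC. Rb1, the pocket protein gene, rose by 1.05 ± 0.22 (adjusted p = 0.0121), with 46.2 ± 4.4 CPM in MLL-ENL HSC and 22.3 ± 3.0 CPM in WT HSC. E2f8, a repressor of the E2F family, fell by 1.01 ± 0.24 (adjusted p = 0.0274), with 16.7 ± 1.1 CPM in MLL-ENL HSC and 33.7 ± 2.5 CPM in WT HSC. Cdt1, a licensing factor of replication origins, fell by 0.86 ± 0.21 (adjusted p = 0.0337), with 25.1 ± 4.3 CPM in MLL-ENL HSC and 45.6 ± 3.7 CPM in WT HSC (SD, n = 3 each). Leaving out the 2 libraries that stood apart, 4 of the 49 rose and 15 fell, and 11 of the 15 were among the 13 E2F target genes of replication. In that fit 10.2% of all genes were called higher and 11.1% lower, in place of 3.19% and 0.929%. The calls of Cdt1 and E2f8 held in 9 and 12 of 22 alternatives, and were lost when any 1 of the 6 HSC libraries was left out. Over the 12 libraries left out in turn the adjusted p ran from 0.0121 to 0.180 for Cdt1 and from 0.00214 to 0.123 for E2f8. The call of Cdkn2c was lost without 4 of the 12 libraries (adjusted p up to 0.0933) and that of Rb1 without 2 (up to 0.0618).

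With MLL-ENL in preGM 3 of the 49 genes rose and 2 fell, where 3.7% of all genes were called higher and 3.07% lower. The median log2 fold change was 0.21 against 0.08 over all genes. Cdkn2c rose by 2.06 ± 0.34 (edgeR adjusted p = 0.00135), with 23.4 ± 9.4 CPM in MLL-ENL preGM and 5.63 ± 1.34 CPM in WT preGM. Its 3 MLL-ENL libraries were above the WT libraries in each cell type. Mcm7, a subunit of the replicative helicase, rose by 0.95 ± 0.27 (adjusted p = 0.0478), with 409 ± 133 CPM in MLL-ENL preGM and 212 ± 50 CPM in WT preGM. MLL-ENL preGM replicate 1 was the highest for Mcm7, at 562 CPM against 315 and 351 CPM in the other MLL-ENL preGM libraries, and without it the log2 difference was 0.65 (adjusted p = 0.107). The Mcm7 call held in 7 of 22 alternatives, with adjusted p up to 0.241. Stat5a, which carries cytokine signals to Ccnd genes, rose by 0.81 ± 0.21 (adjusted p = 0.0255). E2f2, an activator of the E2F family, fell by 1.33 ± 0.28 (adjusted p = 0.00706), and Cdkn1a, the CIP/KIP inhibitor p21, fell by 1.17 ± 0.32 (adjusted p = 0.0401). The Cdkn1a call held in 8 of 22 alternatives, with adjusted p up to 0.237. With the 2 libraries that stood apart left out 5 rose and 1 fell, where 3.52% of all genes were called higher and 3.62% lower, and Cdkn1a was no longer called. The response was called different between the cell types for 1 of the 49 genes, Rb1, at -1.18 ± 0.31 (edgeR adjusted p = 0.0477). Of all genes 3.13% were called in that comparison. Most alternatives lost the Rb1 call, as given under the results flagged for a closer look. Without the 2 libraries 14 of the 49 differed upward and 2 downward, where 6.73% of all genes were called higher and 5.45% lower.

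Between the cell types more of the pathway moved, as did more of all genes. In preGM against HSC with MLL-ENL 20 of the 49 genes rose and 10 fell. Of all genes 20.4% were called higher there and 21.1% lower. The median was 0.45 against 0.00 over all genes. In WT 3 of the 49 rose and 12 fell, where 18.4% of all genes were called higher and 20.1% lower. The median in WT was -0.24 against -0.03 over all genes. Among CIP/KIP inhibitors, Cdkn1c (p57) fell by 5.54 ± 0.42 with MLL-ENL and fell by 4.48 ± 0.42 in WT (edgeR adjusted p = 1.15e-07 and 6.62e-07). It had 0.499 ± 0.196 CPM in MLL-ENL preGM, 0.478 ± 0.274 CPM in WT preGM, 23.0 ± 4.1 CPM in MLL-ENL HSC and 10.2 ± 2.9 CPM in WT HSC. Cdkn1b (p27) fell by 1.20 ± 0.23 with MLL-ENL and by 0.99 ± 0.23 in WT, and Cdkn1a rose in WT by 1.65 ± 0.33. The INK4 genes Cdkn2c and Cdkn2d differed by -0.08 ± 0.32 and -0.49 ± 0.26 with MLL-ENL and by -0.71 ± 0.34 and 0.07 ± 0.26 in WT, none past the threshold (edgeR adjusted p from 0.107 to 0.864). Among pocket proteins, Rb1 fell by 1.51 ± 0.22 and Rbl2 by 1.06 ± 0.29 with MLL-ENL, and Rbl1 by 0.96 ± 0.29 and Rbl2 by 0.91 ± 0.29 in WT.

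Of 10 E2F and DP genes, 3 rose and 3 fell with MLL-ENL and 3 fell in WT. Of all genes 20.4% were called higher and 21.1% lower with MLL-ENL, and 18.4% and 20.1% in WT. The DP partner Tfdp2 fell by 1.91 ± 0.22 with MLL-ENL and fell by 2.25 ± 0.22 in WT, while Tfdp1 rose by 1.77 ± 0.36 and E2f8 by 1.25 ± 0.24 with MLL-ENL. Of the 13 E2F target genes of replication, 12 rose with MLL-ENL, with a median of 1.24, and 1 rose in WT, with a median of 0.11. Rrm2, a subunit of ribonucleotide reductase, rose by 2.81 ± 0.40 with MLL-ENL and by 2.02 ± 0.39 in WT, and Cdc6, Mcm5 and Mcm7 rose by 2.09 ± 0.41, 1.63 ± 0.38 and 1.46 ± 0.28 with MLL-ENL (edgeR). Without MLL-ENL preGM replicate 1, Cdc6 rose by 1.40 and Mcm5 by 1.004 with MLL-ENL (edgeR adjusted p = 0.00289 and 0.00940), and Tfdp1 rose by 1.12 (adjusted p = 0.00259). Leaving both libraries out, 12 of the 13 rose with MLL-ENL, and 4 rose and 3 fell in WT, where 25.1% of all genes were called higher with MLL-ENL and 25.6% in WT. Of the inputs to Ccnd genes, Foxo1 fell by 3.47 ± 0.36 with MLL-ENL and by 2.58 ± 0.35 in WT, and Myc rose by 1.50 ± 0.38 with MLL-ENL. Without MLL-ENL preGM replicate 1, Myc rose by 0.85 (edgeR adjusted p = 0.0235), 1.81-fold in place of 2.83-fold. Of the cyclin E, cyclin A and CDK2 list, 3 of 5 rose with MLL-ENL, led by Ccne2 at 1.38 ± 0.37 (0.66 without MLL-ENL preGM replicate 1, adjusted p = 0.0416), and 1 of 5 in WT, Ccne1 at 0.91 ± 0.28. Cdk7, of the CDK-activating kinase, rose by 1.04 ± 0.36 with MLL-ENL, a call that held in 14 of 22 alternatives. In cyclin D turnover Fbxo4 fell by 1.72 ± 0.41 with MLL-ENL and by 1.39 ± 0.42 in WT, and Usp2, a cyclin D1 deubiquitinase, fell by 0.82 ± 0.26 with MLL-ENL.

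The genes whose pattern over the 12 libraries was most like that of each of the 5 were found by the root mean square difference of centred log2 CPM. For Ccnd1 these were Ccdc8 (0.227), Adam22 (0.232) and Mllt3 (0.304), beside a spread of Ccnd1 about its own mean of 1.56. For Ccnd2 they were Dhdds (0.0923), Preb (0.0923) and Sf3b4 (0.104), beside a spread of 0.236. For Ccnd3 they were Chd4 (0.141), Arhgef1 (0.141) and Plcb2 (0.154), beside 0.405. For Cdk4 they were Eef1g (0.0814), Rpl3 (0.108) and Bmp8b (0.110), beside 0.538. For Cdk6 they were Hnrnpa1 (0.181), Lap3 (0.186) and Exosc9 (0.190), beside 0.701. The likeness includes the low value that WT preGM replicate 2 had in Cdk4, Cdk6 and Ccnd2.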

How the data were processed

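The authors deposited, per the file headers, a raw read count and an RPKM value for every exon, intron and spliced transcript of each library. TopHat2 2.0.8, Bowtie2 2.1.0, HTSeq and edgeR are named in the submitters' processing notes, with no role given. No genome build is named in the labels used here. Of 93615 transcripts, 95.8% matched the GENCODE M21 annotation of GRCm38 by identifier, and 86.2% of these had the same start and end, so coordinates are those of GRCm38, counted from 1. Counting ignored strand. RPKM values deposited by the authors were used only in alternatives. Kits were the RNeasy micro and the SMARTer low input kit (labels).

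Gene counts were sums of deposited exon counts over non-overlapping exons (99.4% of exon bases). Transcripts with no gene, 1.23 to 3.20% of the counts of a library, were left out. edgeR 4.0.16 in R 4.3.3 (filterByExpr, minimum count 10 and total 15, TMM scaling, quasi-likelihood, all 12 libraries, a mean per group) tested 15711 genes in 5 contrasts, 2-sided, with Benjamini-Hochberg adjustment and a threshold of 0.05. SE were derived from the F statistic. The test was checked on simulated counts. Replicate pairs of a group differed by more than sampling noise (chi-square per degree of freedom 17.0 to 554). Exact permutation tests used scipy. Alternatives included DESeq2 1.42.0 and limma 3.58.1.

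Genes named besides the 5 were those past the threshold in each list, at most the 4 largest per list and comparison, and the 3 most alike. The 5 genes, the lists and the tests were chosen with earlier results of these data known. Replicate numbers were not used to pair libraries in the main fit.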

Additional observations from a re-analysis of the deposited data

Results flagged for a closer look

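The response of Rb1 to MLL-ENL differed between the cell types by the edgeR interaction test, at -1.18 (log2, preGM response minus HSC response, adjusted p = 0.0477). It had 16.2 ± 2.0 CPM in MLL-ENL preGM and 17.7 ± 2.9 CPM in WT preGM, against 46.2 ± 4.4 CPM in MLL-ENL HSC and 22.3 ± 3.0 CPM in WT HSC (SD, n = 3 each). The call held in 4 of 21 alternatives, with adjusted p from 0.00200 to 0.318.

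Intron counts, which no comparison used, were looked at for the 5 genes in both cell types. They were above the WT level in all 3 MLL-ENL libraries in 2 cases. The share of all genes whose introns did so was not computed. In exon counts MLL-ENL and WT did not overlap, in either direction, for 34.8% of all genes in HSC and 27.8% in preGM. Introns of the Ccnd3 reference transcript had 65.5 ± 10.8 CPM in MLL-ENL HSC and 35.6 ± 3.6 CPM in WT HSC. Introns of Cdk4 had 5.48 ± 2.23 CPM in MLL-ENL preGM and 2.88 ± 0.85 CPM in WT preGM. Neither was tested, and introns of Ccnd3 hold exons of its other transcripts.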

How the results depend on the processing

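Of 553 alternative values of 51 results, apart from those that left out 1 library, 430 kept their direction and their side of the threshold. The rest follow as log2 differences, or as differences of shares in percentage points, and their cause was not tested. DESeq2 gave for MLL-ENL in HSC Cdk6 -0.76, 1365 genes called, 2 of the 5 called, and for MLL-ENL in preGM 1758 genes called, and for the difference of responses Ccnd1 -1.06, Cdk6 1.40, 1063 genes called, 2 of the 5 called, and for preGM against HSC with MLL-ENL Cdk4 0.90, and for preGM against HSC in WT Ccnd2 0.43, 2 of the 5 called. The authors' deposited RPKM of the longest transcript gave for MLL-ENL in preGM the share of Ccnd1 -0.0236 points, the share of Ccnd2 -0.0454 points, the share of Ccnd3 0.0690 points, and for preGM against HSC in WT the share of Ccnd3 0.200 points. Counting exons before the last gave for MLL-ENL in HSC Ccnd1 0.71, Ccnd3 1.32, and for MLL-ENL in preGM the log2 kinase ratio -1.46, Ccnd1 -0.88, Ccnd3 0.22, Cdk6 -0.56, the share of Ccnd1 -0.0930 points, the share of Ccnd2 -0.238 points, the share of Ccnd3 0.332 points, and for preGM against HSC in WT Ccnd3 0.0976, Cdk6 2.102, 2 of the 5 called. Exons before the last without both libraries that stood apart gave for MLL-ENL in HSC Ccnd1 0.71, Ccnd3 1.32, and for MLL-ENL in preGM Ccnd1 -0.61, Ccnd2 -0.13, Cdk6 -0.0413, and for the difference of responses Ccnd3 -1.63, Cdk4 0.45, 2 of the 5 called, and for preGM against HSC with MLL-ENL Ccnd2 0.57, Cdk4 1.10, 5 of the 5 called, and for preGM against HSC in WT Ccnd2 0.82, Ccnd3 0.0753, Cdk4 0.65, Cdk6 1.75, 4 of the 5 called. The last exon gave for the difference of responses Ccnd2 0.0602, and for preGM against HSC with MLL-ENL Cdk4 0.72. The last exon without both libraries gave for MLL-ENL in HSC Cdk4 -0.31, Cdk6 -0.75, 3 of the 5 called, and for MLL-ENL in preGM Ccnd2 -0.0600, Cdk6 0.45, 1 of the 5 called, and for the difference of responses Cdk4 0.45, Cdk6 1.21, 2 of the 5 called, and for preGM against HSC with MLL-ENL Cdk4 0.89, and for preGM against HSC in WT Ccnd2 0.28, Ccnd3 -0.62, Cdk4 0.44, Cdk6 0.66, 5 of the 5 called. Scaling by library size alone gave for MLL-ENL in HSC Cdk4 0.0123, and for MLL-ENL in preGM Ccnd3 0.00702, and for the difference of responses Ccnd2 0.0924, and for preGM against HSC with MLL-ENL Ccnd2 -0.18, and for preGM against HSC in WT Ccnd2 -0.27, Ccnd3 -0.95, Cdk4 -0.45, Cdk6 -0.24, 2 of the 5 called. With a pseudocount of 0.1, limma on log2 RPKM gave for MLL-ENL in HSC Cdk4 0.0118, 1167 genes called, and for the difference of responses Ccnd2 0.13, and for preGM against HSC with MLL-ENL Ccnd2 -0.19, and for preGM against HSC in WT Ccnd2 -0.32, Ccnd3 -0.95, Cdk4 -0.71, Cdk6 -0.35, 2 of the 5 called. With a pseudocount of 1, limma gave for MLL-ENL in HSC Cdk4 0.0118, 1599 genes called, and for MLL-ENL in preGM 609 genes called, and for the difference of responses Ccnd1 -0.9995, Ccnd2 0.12, 1 of the 5 called, and for preGM against HSC with MLL-ENL Ccnd2 -0.19, and for preGM against HSC in WT Ccnd2 -0.31, Ccnd3 -0.87, Cdk4 -0.70, Cdk6 -0.34, 2 of the 5 called. The longest transcript gave for MLL-ENL in HSC Ccnd3 1.56, 2 of the 5 called, and for MLL-ENL in preGM Ccnd3 0.13, the share of Ccnd1 -0.0245 points, the share of Ccnd2 -0.0443 points, the share of Ccnd3 0.0688 points, and for preGM against HSC in WT Ccnd3 0.33, the share of Ccnd3 0.200 points. Fitting only the groups compared gave for MLL-ENL in HSC Ccnd3 0.47, Cdk6 -0.74, 2508 genes called, 3 of the 5 called, and for preGM against HSC with MLL-ENL Cdk4 0.87. Without both libraries the fit gave for MLL-ENL in HSC Ccnd3 0.45, Cdk6 -0.76, 3369 genes called, 3 of the 5 called, and for MLL-ENL in preGM Ccnd2 -0.10, Cdk6 0.45, 1 of the 5 called, and for the difference of responses Ccnd3 -0.60, Cdk4 0.45, Cdk6 1.20, 1926 genes called, 3 of the 5 called, and for preGM against HSC with MLL-ENL Ccnd2 0.40, Cdk4 1.03, 5 of the 5 called, and for preGM against HSC in WT Ccnd2 0.56, Ccnd3 -0.44, Cdk4 0.58, Cdk6 0.68, 5 of the 5 called. Leaving out 1 library at a time, or both that stood apart, gave for MLL-ENL in HSC Ccnd1 1.02 to 1.21, Ccnd3 0.39 to 0.52, Cdk6 -0.80 to -0.68, 0 to 3 of the 5 called, 313 to 3369 genes called, and for MLL-ENL in preGM Ccnd1 -0.12 to 0.18, Ccnd2 -0.10 to 0.15, Cdk6 0.41 to 0.82, 0 to 1 of the 5 called, 566 to 1345 genes called, the log2 kinase ratio -0.13 to 0.28, the share of Ccnd1 -0.0661 to 0.130 points, and for the difference of responses Ccnd2 -0.17 to 0.0897, Ccnd3 -0.91 to -0.58, Cdk4 0.32 to 0.96, Cdk6 1.16 to 1.57, 0 to 3 of the 5 called, 299 to 1926 genes called, and for preGM against HSC with MLL-ENL Ccnd2 0.36 to 0.44, Cdk4 0.79 to 1.03, 3 to 5 of the 5 called, and for preGM against HSC in WT Ccnd2 0.31 to 0.56, Ccnd3 -0.44 to -0.11, Cdk4 -0.0654 to 0.58, Cdk6 0.27 to 0.68, 1 to 5 of the 5 called. A fit with the replicate number as a block changed 0 calls (35 of 35 results the same, Ccnd1 with MLL-ENL in HSC 1.10, edgeR adjusted p = 0.0257), and 18 pairs of libraries with the same number correlated by -0.10 to 0.10. Pairs with different numbers correlated by -0.14 to 0.14. No sign of pairing by number was seen, but such correlations cannot exclude a shared animal or culture. Scaling by library size alone moved the median gene by 0.19 for MLL-ENL in HSC, 0.32 in preGM, 0.13 for the difference, -0.56 for preGM against HSC with MLL-ENL and -0.70 in WT. The share of calls that were higher was then 87.9, 74.9, 38.3, 18.1 and 16.2%, in that order, against 77.4, 54.7, 34.3, 49.1 and 47.8% with TMM. Depth limits the exons before the last of Ccnd1, with 2 to 15 counts per preGM library.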

Other observations

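Introns of the Cdk6 reference transcript had 59.0 ± 23.4 CPM in MLL-ENL preGM, 44.6 ± 3.4 CPM in WT preGM, 60.7 ± 11.4 CPM in MLL-ENL HSC and 65.1 ± 8.1 CPM in WT HSC (SD, n = 3 each). There preGM and HSC overlapped with MLL-ENL, at 40.1 to 85.2 CPM and 48.7 to 71.3 CPM, while WT preGM, at 42.5 to 48.6 CPM, was below WT HSC, at 55.8 to 70.1 CPM. In exons 1 to 7 all preGM libraries were above all HSC libraries. Introns of Ccnd2 had 4.52 ± 0.12 CPM in MLL-ENL preGM and 4.13 ± 0.42 CPM in WT preGM, against 10.5 ± 1.0 CPM in MLL-ENL HSC and 10.6 ± 3.7 CPM in WT HSC. All preGM libraries were below all HSC libraries in Ccnd2 introns. Introns of Ccnd3 were lower in preGM too, at 10.7 CPM with MLL-ENL and 9.48 CPM in WT, against 65.5 and 35.6 CPM in HSC. Those of Cdk4 overlapped between the cell types. How introns of all genes differed between the cell types was not tested. The whole-gene exon level of Ccnd2 was higher in preGM of each strain but not called by edgeR (adjusted p = 0.190 with MLL-ENL and 0.183 in WT). Spans of antisense genes overlap Ccnd2 (9330179D12Rik and Gm43126) and Cdk6 (Gm17590 and Gm42435). Counting ignored strand, so their reads cannot be told apart from those of Ccnd2 and Cdk6. The intron values are a description, with no test.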
